A study of Mus musculus with 6 samples.

Results

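The Zfp-named zinc finger genes were the genes whose symbol consists of Zfp, a number and at most 1 trailing letter, apart from Zfp335 itself. Of the 13709 rows of the count table, 344 met this rule, with 343 different symbols because Zfp968 stood in 2 rows. RNA-Seq had been performed on CD4+YFP+CD25+ regulatory T cells (Tregs) of C57BL/6 mice at 2 weeks of age, with 3 samples from Foxp3Cre mice (WT) and 3 from Foxp3Cre Zfp335 fl/fl mice (KO). Both genotypes carried the Foxp3-driven YFP-iCre, and KO mice alone carried the floxed Zfp335 allele, so deletion was limited to cells that had switched on Foxp3. The sources used here did not say whether a sample was 1 mouse or a pool, and the labels differed on lymph nodes or spleen as the origin. P-values therefore measure the spread between these samples, which may be technical.

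Most Zfp-named genes encode C2H2 zinc finger proteins, in which each finger holds a zinc ion between a pair of cysteines and a pair of histidines and reads a few bases of DNA. Many also carry a KRAB box, which recruits the corepressor Trim28 and, through it, the H3K9 methyltransferase Setdb1 and heterochromatin protein 1, and such proteins are known for silencing retroelements and imprinted genes. Their genes arose by tandem duplication and lie in clusters. A smaller number of Zfp names belong to proteins that act in RNA decay, ribosome assembly or mitosis. Zfp335, the deleted gene, is itself a C2H2 factor that binds promoters and works with H3K4 methyltransferase complexes.

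The total count per sample lay between 32032631 and 40728419. Zfp335 (chr2:164891882-164912585) was measured at 101, 94.3 and 103 CPM (counts scaled to the effective library size) in the WT samples and at 37.0, 37.9 and 40.2 CPM in the KO samples. All KO values lay below all WT values, and 38.6% of the WT mean was left (log2 fold change −1.37 ± 0.07 (SE); adjusted p = 2.14e-05 by edgeR's quasi-likelihood test). The 6 T cell and Treg markers were present in every sample, with summed levels of 3927 to 5104 CPM in WT and 3309 to 3405 CPM in KO. Of these, Ikzf2 and Foxp3 were called lower (log2 fold changes −1.11 and −0.88) and the other 4 were not called. Foxp3 was at 738, 642 and 1190 CPM in WT replicates 1 to 3 and at 460 to 472 CPM in KO. WT replicate 3 thus raised its WT mean, and its change without that sample is not given here. Cd4 was the only 1 of the 6 with a positive change (0.26). The 3 measured myeloid markers summed to 8.41 to 19.4 CPM in WT and 37.6 to 42.4 CPM in KO, and all 3 were called higher. Both NK markers summed to 1.71 to 2.58 CPM in WT and 3.39 to 5.05 CPM in KO, with Klrb1c called higher, and both CD8 markers to 9.32 to 13.2 and 12.02 to 12.7 CPM, with Cd8a called higher. The 3 B cell markers summed to 3.66 to 7.77 CPM in WT and 5.12 to 6.80 CPM in KO and the 2 hemoglobin genes to 15.1 to 61.1 and 26.4 to 27.98 CPM, and none of these 5 was called. The 4 cycling markers (Mki67, Top2a, Ccna2 and Cdk1) summed to 311 to 752 CPM in WT and 2382 to 2480 CPM in KO. All 4 were called higher. WT replicate 3 stood apart from the other WT samples in the principal components and had the lowest cycling sum. The part of these levels in the results below was not tested. In bulk samples, fewer cells of a type and less RNA per cell cannot be told apart.

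The promoters of 4 members from either end of the range of change are shown, and they are not typical in their number of CG dinucleotides. Tested members had a median of 10 CG before their start sites and other tested genes 15. Only Zfp708 lay below both medians, and Zfp607b, Zfp385a and Zfp367 lay above both. Each sequence holds the 250 bases before the start site of the gene in GRCm38.p6, from RefSeq, written on the strand of the gene, with every CG in capitals. Zfp607b had the largest fall among named members (chr7:27674411-27674660, plus strand, 29 CG). Zfp708, a fall with few CG (chr13:67097977-67098226, minus strand, 7 CG), stands beside it. Zfp385a had the largest rise (chr15:103340087-103340336, minus strand, 19 CG), and Zfp367 rose at a higher level (chr13:64153200-64153449, minus strand, 29 CG).
Zfp607b: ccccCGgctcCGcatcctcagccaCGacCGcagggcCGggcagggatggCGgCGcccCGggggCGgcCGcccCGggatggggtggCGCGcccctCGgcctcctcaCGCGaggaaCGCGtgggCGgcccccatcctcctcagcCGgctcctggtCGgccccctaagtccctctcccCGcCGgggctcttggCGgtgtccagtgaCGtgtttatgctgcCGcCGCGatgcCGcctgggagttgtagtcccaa
Zfp708: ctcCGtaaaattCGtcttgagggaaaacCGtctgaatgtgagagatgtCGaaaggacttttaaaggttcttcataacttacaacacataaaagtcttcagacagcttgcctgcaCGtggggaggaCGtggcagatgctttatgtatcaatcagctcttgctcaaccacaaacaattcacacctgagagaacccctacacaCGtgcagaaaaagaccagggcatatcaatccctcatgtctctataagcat
Zfp385a: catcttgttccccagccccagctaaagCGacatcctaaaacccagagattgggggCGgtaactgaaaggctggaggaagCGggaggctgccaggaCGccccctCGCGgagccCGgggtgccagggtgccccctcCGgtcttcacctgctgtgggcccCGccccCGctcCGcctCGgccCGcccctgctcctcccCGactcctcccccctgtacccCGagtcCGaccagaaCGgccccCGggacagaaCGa
Zfp367: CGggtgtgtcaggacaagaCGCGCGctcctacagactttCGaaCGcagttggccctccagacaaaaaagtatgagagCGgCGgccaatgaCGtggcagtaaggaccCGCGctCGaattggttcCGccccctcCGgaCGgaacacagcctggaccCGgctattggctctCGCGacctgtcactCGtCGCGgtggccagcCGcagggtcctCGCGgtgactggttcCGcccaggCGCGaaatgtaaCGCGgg

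In all, 286 tested members had such a promoter in the reference, with a median of 10 CG (interquartile range 6 to 16.8). The 10392 other tested genes with a promoter had a median of 15 CG (8 to 22), and all 27025 promoters of the reference a median of 6 (2 to 16). At least 1 CG, a word that reads the same on both strands, was held by 99.3% of the members' promoters, 97.8% of those of other tested genes and 91.7% of all. The word TATAAA on either strand was held by 5.59% of the members' promoters, 7.40% of those of other tested genes and 12.98% of all. The median was 10 CG for the 65 promoters of members called lower, 10 for the 216 not called and 17 for the 5 called higher (interquartile range 4 to 19), and no difference between them was tested.

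To see how the family as a whole differed between KO and WT samples, the members' fold changes were set beside those of all genes. Of the 341 members that passed the low-count filter, 77 were called lower in KO (22.6%) and 5 higher (1.47%), and 259 were not called. A call required a fold change above 1.5, p under 0.05 and an adjusted p under 0.1 in edgeR's quasi-likelihood test across all genes. In all 13594 genes tested, 12.5% were called lower and 11.9% higher, so 24.4% were called in either direction, close to the 24.0% of the members. The members thus carried about the usual share of calls but nearly all of them in the lower direction. Without regard to calls, 267 members (78.3%) had a negative log2 fold change, against 52.2% of the other genes.

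The members' changes were small and close together. Their median log2 fold change was −0.30 (interquartile range −0.62 to −0.05), against −0.03 (−0.39 to 0.32) for the other 13253 genes, and the SD was 0.51 against 1.002. Of the 77 members called lower, 25 were down by more than 2-fold, and the median over the 77 was −0.86. A further 59 members had lower values that passed both p cutoffs without reaching a 1.5-fold change, as did 7 with higher values. All KO values lay below all WT values for 156 of the 341 members, against 3749 of all 13594 genes (27.6%). They lay above them for 21 of the 341, against 3560 of all genes (26.2%). All 82 called members were among these. When the test itself required a change above 1.5-fold (glmTreat), 24 members were called lower (7.04%) and 4 higher (1.17%). Of all genes, 5.48% and 6.92% were. Under this test the members' share of lower calls was thus near that of all genes, and their share of higher calls was below it.

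**Figure D1:**
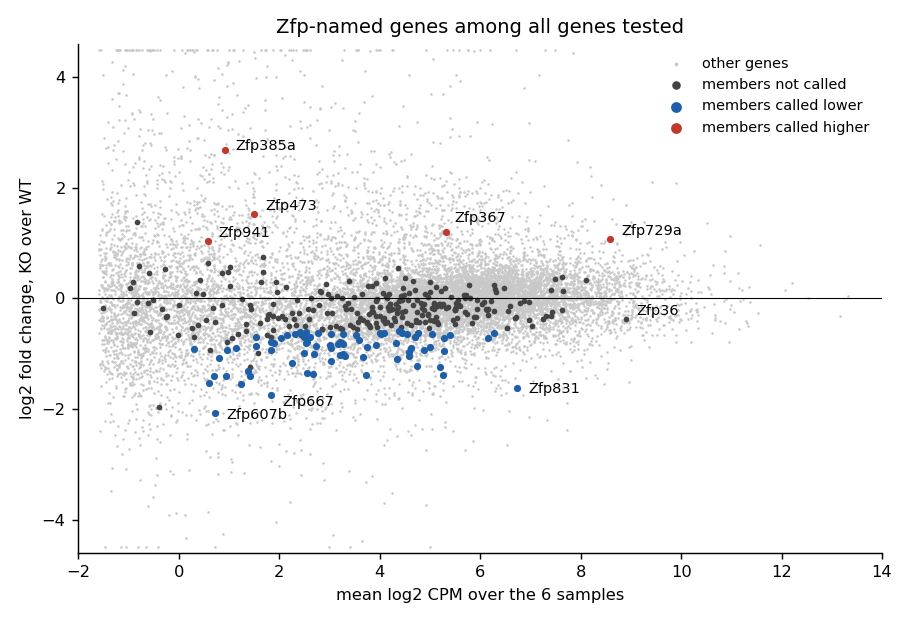
Log2 fold change (KO over WT) against mean log2 CPM for the 13594 genes tested, with members in colour or dark grey and genes beyond ±4.5 drawn at the edge. The 77 members called lower form a band below 0 across the low and middle expression range, and 5 red points stand above it.

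The shift was visible in each sample. Each member's log2(CPM + 0.5) was centred on its mean over the 6 samples, and the median over the members was taken. It was 0.09, 0.12 and 0.19 in WT replicates 1 to 3 and −0.12, −0.12 and −0.15 in KO replicates 1 to 3. The genotypes did not overlap, and the 3 KO samples lay closer together than the 3 WT samples. For the other genes the same median stayed between −0.01 and 0.02 in every sample. The scaling of the libraries, which is set on the bulk of genes, holds that median near 0. The summed level of all members was 10115, 10162 and 11477 CPM in WT (10585 ± 773 (SD, n = 3)) and 9385, 9492 and 9315 CPM in KO (9397 ± 89.5 (SD, n = 3)). WT replicate 3, the sample that stood apart, was the highest of the WT samples for 174 members and the lowest for 88. Without it, 71 members were called lower and 9 higher, and the median was −0.27. With each sample left out in turn, 59 to 81 members were called lower (17.3% to 23.7%) and 4 to 9 higher (1.17% to 2.64%). The shares of all genes were 10.6% to 13.2% and 10.4% to 13.6%. The 4 that joined the higher calls without WT replicate 3 were Zfp101, Zfp281, Zfp629 and Zfp987, which are named here after their values were seen.

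Members were expressed at lower levels than other genes, with a median of 15.1 CPM against 25.9 CPM, so the comparison was repeated within quintiles of mean expression over all genes tested. In the lowest quintile (0.333 to 2.12 CPM) the median log2 fold change of 45 members was −0.18, against −0.10 for the other genes. The second quintile (2.12 to 14.7 CPM) held 123 members, with a median of −0.50 against −0.16. There 44 members were called lower (35.8%, against 23.2% of the other genes) and 1 higher (0.813%, against 17.1%). The second quintile was where members fell most and where they were most numerous. In the third quintile the medians were −0.24 for 107 members and −0.06 for other genes, and 22 members were called lower and 0 higher (20.6% and 0%, against 13.4% and 11.8%). In the upper 2 quintiles, members had medians of −0.16 and −0.23, against 0.03 and 0.05. The share called lower was not above that of other genes there, with 6.98% of 43 members called lower against 7.81% in the fourth and 4.35% of 23 against 7.38% in the highest quintile. In each quintile the members' SD was the smaller, from 0.86 against 1.51 in the lowest to 0.49 against 0.57 in the highest.

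**Figure D2:**
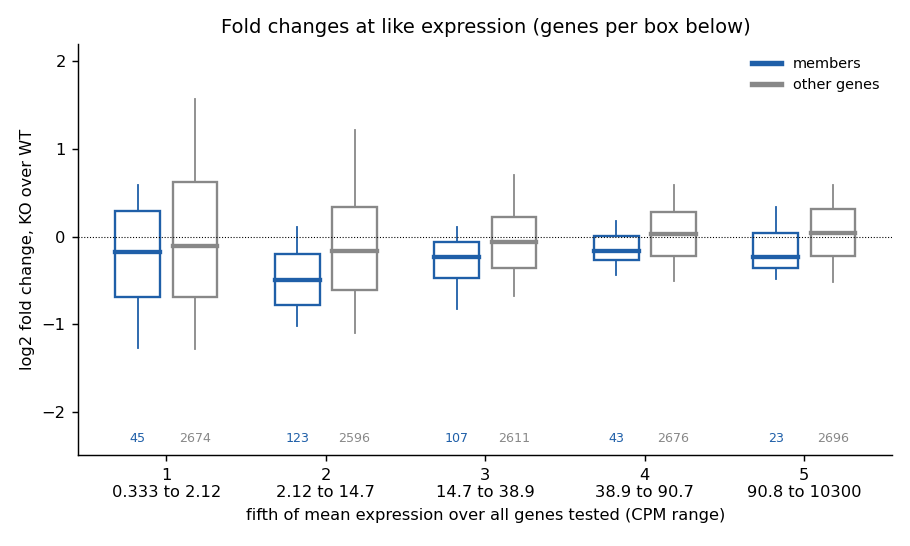
Log2 fold change (KO over WT) in quintiles of mean expression, with CPM ranges below, for members (blue) and other genes (grey). Boxes span the quartiles, thick lines are medians and whiskers run from the 10th to the 90th percentile, and the members' median lies below that of the other genes in all 5 quintiles, furthest in the second (−0.50 against −0.16).

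Members also differed from other genes in transcript composition, with a median GC content of 43.9% against 50.3% and a median length of 3380 against 2918 bases. Within the quintile of genes lowest in GC, which held 173 members, the median log2 fold change was −0.37 for members and 0.01 for the others. Within the quintile highest in GC it was −0.23 for 41 members and −0.11 for the others. Members had the lower median in all 5 quintiles of GC and in all 5 quintiles of length. With GC and length entered as offsets in the edgeR fit, 74 members were called lower and 5 higher.

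Most of the 10 named falls were KRAB zinc finger genes at low levels. KRAB signatures were common among tested members in general, at 59.7% of those with a protein. Zfp607b, a KRAB gene with 17 finger motifs (chr7:27674661-27706484), was at 2.96, 2.07 and 2.76 CPM in WT and 0.766, 0.672 and 0.397 CPM in KO, a change of −2.08 ± 0.38 on the log2 scale (SE; adjusted p = 0.00396, edgeR). Zfp667, another KRAB gene (chr7:6286195-6307883), went from 4.48, 7.40 and 4.54 CPM to 1.86, 1.47 and 1.56 CPM (−1.75 ± 0.29; adjusted p = 0.00247, edgeR). In both genes every KO sample lay below every WT sample, as the rule for named falls required. KRAB genes Zfp661, Zfp493, Zfp647 and Zfp708 fell by 1.401 to 1.54 on the log2 scale, from WT means of 2.19 to 3.83 CPM to KO means of 0.759 to 1.45 CPM. Zfp708 is uncertain, since all of the 50-base words of its transcript also occur in Gm28557 and it overlaps Rslcan18. Zfp174, which has a SCAN domain in place of KRAB, went from 2.28 ± 0.579 to 0.864 ± 0.186 CPM (SD, n = 3) and overlaps Zfp597.

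Falls of the same size occurred in members with many more reads. Zfp831, a gene with 2 finger motifs and no KRAB box (chr2:174598682-174710832), was at 162, 154 and 168 CPM in WT and 52.6, 54.4 and 50.9 CPM in KO. Its KO mean was 32.7% of its WT mean, and its log2 fold change of −1.61 ± 0.07 had the smallest adjusted p of the named falls (7.92e-06, edgeR). Of all members called lower it had the most reads. Zfp827, which recruits the NuRD deacetylase complex to telomeres (chr8:79027486-79193768), went from 63.4, 53.5 and 49.5 CPM to 19.6, 20.8 and 23.1 CPM (−1.39 ± 0.12; adjusted p = 0.000147, edgeR). Zfp870, a KRAB gene (chr17:32879221-32891641), went from 19.5, 21.5 and 16.5 CPM to 7.91, 6.99 and 7.06 CPM (−1.39 ± 0.14; adjusted p = 0.000316, edgeR). In these 3 genes the gap between the genotypes was several times the spread within either.

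Of the 5 members called higher, Zfp473, Zfp941 and Zfp729a held a KRAB signature and 2 did not. Among all tested members with a protein, 59.7% held it. Zfp385a, a 3-finger protein that binds RNA and cooperates with p53 (chr15:103313895-103340086), was at 0.788, 0.639 and 0.0300 CPM in WT and 3.28, 3.43 and 2.69 CPM in KO (log2 fold change 2.68 ± 0.74; adjusted p = 0.0230, edgeR). Zfp473, the U7 snRNP partner that acts in the 3′ processing of histone transcripts (chr7:44731480-44748617), went from 2.04, 1.005 and 1.20 CPM to 4.02, 3.98 and 4.31 CPM (1.53 ± 0.32; adjusted p = 0.00745, edgeR). Zfp941, a KRAB gene at a still lower level, went from 0.938 ± 0.360 to 1.94 ± 0.671 CPM (SD, n = 3), with an adjusted p of 0.0907 in the edgeR fit. It was below the level set for named rises and lost its call when any sample other than WT replicate 3 was left out.

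The remaining pair was well expressed. Zfp367, an activator known from fetal erythroid cells with 2 finger motifs (chr13:64133022-64153199), was at 22.1, 29.0 and 20.6 CPM in WT and 54.6, 55.7 and 55.7 CPM in KO, 2.31-fold higher (log2 fold change 1.21 ± 0.13; adjusted p = 0.00042, edgeR). Zfp729a, a KRAB gene with 27 finger motifs (chr13:67612760-67637803), was at 238, 229.5 and 276 CPM in WT and 522, 538 and 507 CPM in KO, 2.11-fold higher (1.08 ± 0.09; adjusted p = 0.000112, edgeR). Both genes separated the genotypes without overlap, as the rule for named rises required. Zfp729b, its neighbour and namesake, was at 20.2 to 33.8 CPM in WT and 24.9 to 27.9 CPM in KO (−0.04 ± 0.18; adjusted p = 0.892, edgeR) and is given here for comparison, outside the rule for named genes.

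**Figure D3:**
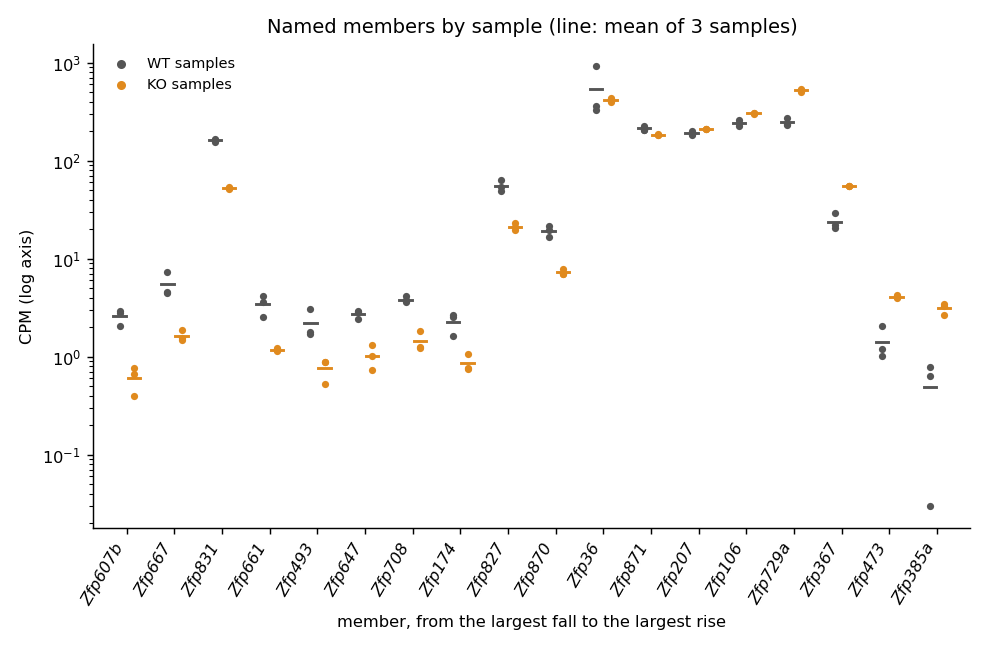
CPM on a log axis in the 3 WT samples (grey) and 3 KO samples (orange) for the named members, ordered from the largest fall (Zfp607b) to the largest rise (Zfp385a), with lines at the means. KO and WT points do not overlap for the 10 falls and 4 rises, which the rule for naming them required. For Zfp36, 1 WT sample lies at 927 CPM, above all others.

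Among the 5 members with the most reads, Zfp729a was the only one called. Zfp36, the CCCH protein tristetraprolin that binds AU-rich elements and speeds mRNA decay, was at 364, 326 and 927 CPM in WT and 396, 435 and 421 CPM in KO. WT replicate 3 alone made the WT mean (539 ± 336 (SD, n = 3)) higher than the KO mean (417 ± 19.7), and without it the log2 fold change turned from −0.37 to 0.27. Zfp106, an RNA-binding protein needed by motor neurons, was at 259, 240.0 and 228 CPM in WT and 309, 309.5 and 298 CPM in KO. Its rise of 1.26-fold passed both p cutoffs (adjusted p = 0.00761, edgeR) but not the fold cutoff. Zfp207, a spindle assembly factor, averaged 191 ± 10.7 CPM in WT samples and 210.2 ± 0.924 CPM in KO samples (SD, n = 3; adjusted p = 0.132, edgeR). Zfp871, a KRAB gene, was at 214 ± 12.7 and 184 ± 3.28 CPM (adjusted p = 0.0372, edgeR), a change under the fold cutoff.

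Per kilobase of transcript, the order of levels was different. Zfp740 stood at 173 CPM per kb over the 6 samples, Zfp36 at 171 and Zfp207 at 128, while Zfp729a, with a transcript of 9455 bases, stood at 40.7 CPM per kb. The median member was at 4.28 CPM per kb, against 9.26 for other genes.

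By protein structure, 203 of the tested members held a KRAB signature and 137 did not, and 1 had no protein in the annotation. Members with KRAB had 51 calls lower (25.1%) and 3 higher, and a median log2 fold change of −0.32. Members without KRAB had 25 calls lower (18.2%) and 2 higher, and a median of −0.23. Over all genes tested, 12.5% were called lower and 11.9% higher. KRAB members were expressed at lower levels, with medians of 9.75, 12.03 and 12.8 CPM in the WT samples against 33.8, 33.4 and 35.1 CPM for members without KRAB. Within quintiles of expression the order of the medians was not constant. In the second quintile the medians were −0.50 for 97 KRAB members and −0.37 for 26 others, while in the third they were −0.20 for 63 and −0.30 for 43. No difference between the groups was tested.

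The number of finger motifs ranged from 0 to 36, the latter in Zfp142, with a median of 10. Members with 11 to 15 fingers had the most calls lower, 35 of 108 (32.4%), and a median of −0.42. The 49 members with 2 to 5 fingers had 8 calls lower and 2 higher and a median of −0.15. The 59 members with 16 or more fingers had 11 and 2, and a median of −0.32, so the change did not grow steadily with finger number. Genes of like structure under other names were set beside them. Of 45 other KRAB genes with at least 2 fingers, 10 were called lower (22.2%) and 1 higher (2.22%), with a median of −0.38. Of 162 other C2H2 genes without KRAB, 28 were called lower (17.3%) and 5 higher (3.09%), with a median of −0.12. Of 18 Zscan and Zkscan genes, which carry SCAN domains, 6 were called lower (33.3%) and 0 higher. Of 39 Zbtb genes, which carry BTB domains, 5 were called lower (12.8%) and 0 higher. Over all genes tested, the shares were 12.5% lower and 11.9% higher.

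Members lay together in the genome. With neighbours at most 500 kb apart, 202 tested members fell into 30 runs of 3 or more, and 139 lay outside runs. All 30 runs had a median log2 fold change below 0, from −0.69 to −0.04. In 22 runs at least 1 member was called lower, and in 1 run a member was called higher. Members in runs had 49 calls lower (24.3%) and 1 higher with a median of −0.33, and those outside had 28 (20.1%) and 4 with a median of −0.22. Over all genes tested, 12.5% were called lower and 11.9% higher.

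The largest run, of 23 KRAB members from Zfp712 to Zfp273 on chromosome 13 (chr13:67038594-67827000), held members that changed in both directions. In it 8 members were called lower (34.8%, against 12.5% of all genes tested), namely Zfp493, Zfp708, Zfp429, Zfp738, Zfp874b, Zfp455, Zfp874a and Zfp273, and the run's median was −0.50. Zfp738 went from 29.0, 29.1 and 36.5 CPM to 16.4, 16.8 and 15.1 CPM, and Zfp429 from 14.2, 17.1 and 20.1 CPM to 9.31, 6.80 and 8.40 CPM. Zfp729a, called higher, lay among them, next to Zfp738 in the order of starts. It was also the member of the run with by far the most reads.

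On chromosome 17, a run of 22 members from Zfp160 to Zfp213 (chr17:21008941-23564226) had 5 called lower and 0 higher, with a median of −0.39 and a range from −1.36 (Zfp948) to 0.64 (Zfp820). A second run there, of 13 members from Zfp871 to Zfp414 (chr17:32765496-33631716), had 2 called lower (15.4%) and a median of −0.20. Chromosome 7 held 87 members, of which 20 were called lower (23.0%) and 2 higher (2.30%). Its run of 15 members from Zfp84 to Zfp146 (chr7:29768552-30169775) had 3 called lower (20%) and a median of −0.40, and its run of 13 from Zfp180 to Zfp526 (chr7:24081877-25227876) had 2 (15.4%) and a median of −0.10. Over all genes tested, 12.5% were called lower and 11.9% higher, so the shares of 15.4% were near the background. The run of 6 from Zfp787 to Zfp28 on that chromosome (chr7:6131489-6396637) had the lowest median, −0.69, with Zfp667, Zfp78 and Zfp28 called lower. Zfp28 was at 14.5, 12.3 and 13.01 CPM in WT and 5.64, 7.64 and 6.10 CPM in KO.

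**Figure D4:**
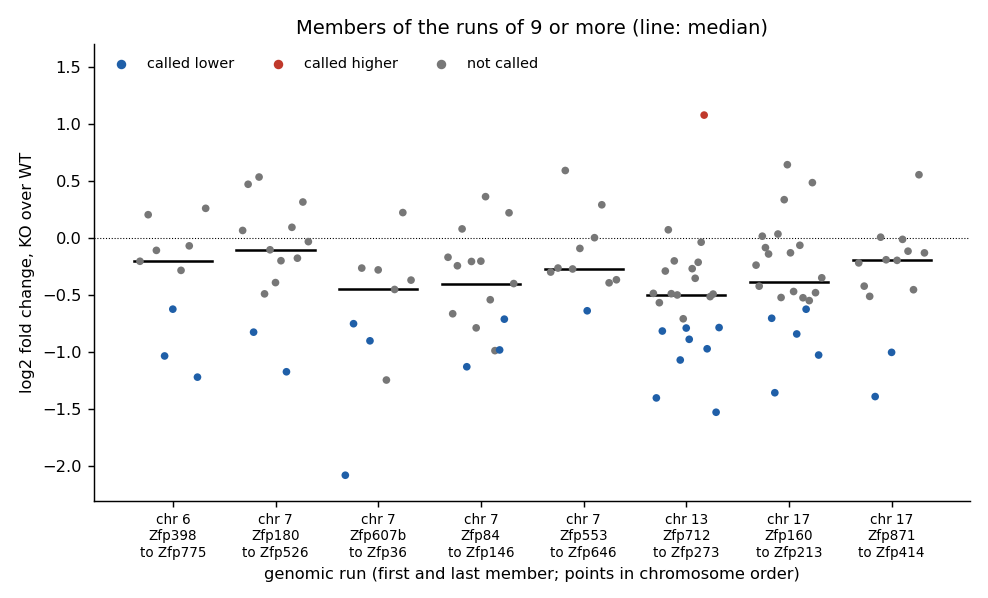
Log2 fold change (KO over WT) of each member in the 8 genomic runs of 9 or more members, in chromosome order within a run, with lines at the medians. All 8 medians lie below 0, and the only red point is Zfp729a, in the chromosome 13 run.

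Members with a known role in silencing did not move together. Zfp932, which represses endogenous retroviruses, was at 30.9, 28.3 and 26.2 CPM in WT and 18.7, 18.7 and 17.1 CPM in KO and was called lower (log2 fold change −0.65 ± 0.10; adjusted p = 0.00197, edgeR). It shares 52.3% of its 50-base words with its neighbour Gm15446 and is uncertain. Zfp445, a keeper of imprints, went from 189 ± 9.30 to 152 ± 5.19 CPM (SD, n = 3; adjusted p = 0.00765, edgeR) and stayed under the fold cutoff, as did Zfp568, which represses a placental Igf2 transcript, from 19.8 ± 2.42 to 25.4 ± 1.56 CPM (adjusted p = 0.0425, edgeR). Zfp809, which binds the primer binding site of murine leukemia virus, was at 21.5 to 24.5 CPM in WT and 23.2 to 25.9 CPM in KO. Of these 4, 1 was called lower and 0 higher, against 12.5% and 11.9% of all genes tested. Zfp57 was not analysed here.

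Of 12 tested members known from lymphocytes or lineage control, 2 were called lower (16.7%) and 0 higher, against 12.5% and 11.9% of all genes tested. Zfp318, which allows IgD expression in B cells, was at 49.1, 45.0 and 49.5 CPM in WT and 30.0, 30.7 and 26.9 CPM in KO (−0.71 ± 0.09; adjusted p = 0.000716, edgeR). Zfp260, a cardiac transcription factor, went from 80.5, 88.6 and 95.4 CPM to 53.8, 55.4 and 52.3 CPM (−0.71 ± 0.08; adjusted p = 0.000538, edgeR). In both, all KO samples lay below all WT samples. Zfp91, a ubiquitin ligase of the noncanonical NF-κB pathway, was at 163, 168 and 186 CPM in WT and 222, 227 and 224 CPM in KO, and its 1.302-fold rise stayed under the fold cutoff (adjusted p = 0.00463, edgeR). Zfp217, a CoREST partner, had a log2 fold change of −0.34 ± 0.07 (adjusted p = 0.00764, edgeR). The others had values between −0.56 and 0.15, and those of Zfp608 and Zfp518b turned on WT replicate 3. Zfp608, which acts on Rag gene expression in thymocytes, was at 27.7 CPM in that sample and at 11.4 to 13.5 CPM in the other 5, and its log2 fold change went from −0.45 to 0.05 without it. Zfp518b was at −0.56 with it and was called lower at −0.77 without it.

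Among members with other roles, 1 of the 4 in the list for mitosis and genome stability was called, and 0 of 3 ribosome factors, 0 of 3 GC-box and related activators and 0 of 2 Zmynd8 cofactors. Over all genes tested, 24.4% were called in either direction. In the list for mitosis, Zfp367 was called higher, and Zfp207, Zfp451 (a SUMO ligase) and Zfp830 (a splicing factor needed in early embryos) were not called, with log2 fold changes of 0.14, −0.20 and 0.10. Of the ribosome factors, Zfp598, the ubiquitin ligase of collided ribosomes, went from 117 ± 8.61 to 91.5 ± 2.98 CPM (SD, n = 3; adjusted p = 0.00764, edgeR), under the fold cutoff. Zfp593 and Zfp622, which act in the assembly of the large subunit, had log2 fold changes of −0.19 and 0.18. The Zmynd8 cofactors Zfp687 and Zfp592 had −0.34 and −0.32, and both passed the p cutoffs but not the fold cutoff. The activators Zfp143 and Zfp148 had −0.12 and −0.08. Zfp281, a GC-box binding factor, was at 108, 120 and 249 CPM in WT and 197, 202 and 205 CPM in KO, and it was called higher at 0.82 when WT replicate 3 was left out. Zfp532, Zfp521, Zfp423, Zfp750 and the gene listed as Zfp76 were not analysed here.

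**Figure D5:**
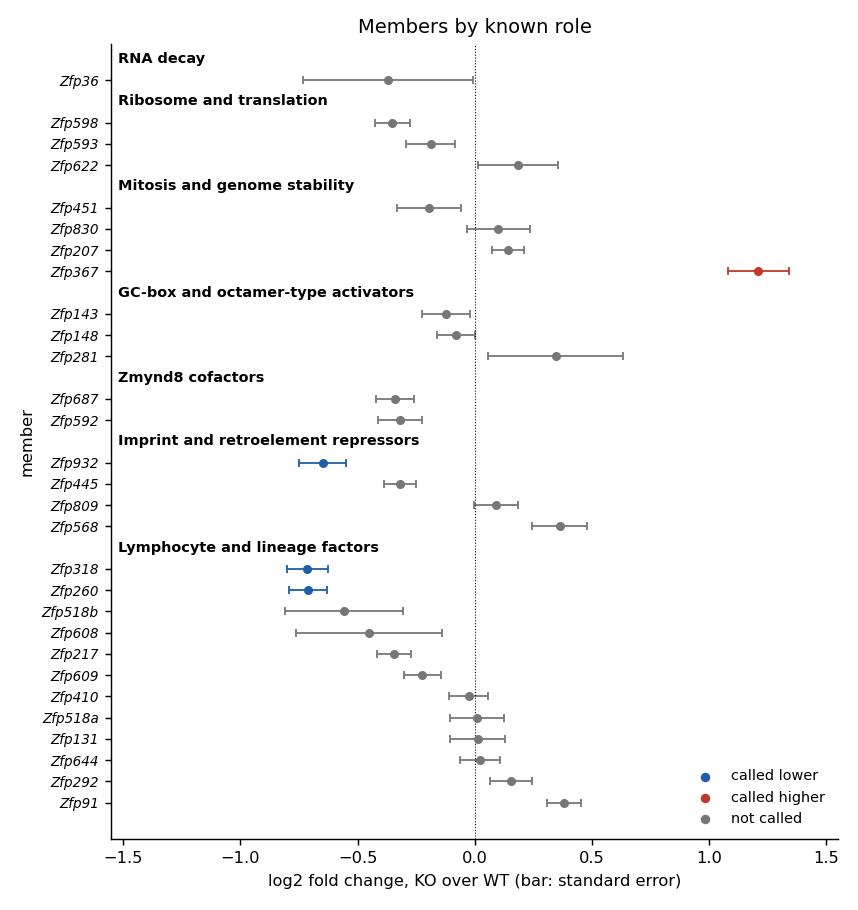
Log2 fold change (KO over WT) with its standard error for 29 members grouped by known role. Zfp367 is the red point at 1.21, the blue points are Zfp932, Zfp318 and Zfp260 at −0.65 to −0.71, and the widest bars belong to genes in which WT replicate 3 stood apart.

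The paralogs of Zfp36 lie outside the naming rule and are given beside it. Zfp36l1, which destabilizes AU-rich mRNAs and holds lymphocytes in quiescence, was at 679, 745 and 781 CPM in WT and 230.0, 279 and 263 CPM in KO, a fall of 1.51 on the log2 scale (SE 0.09; adjusted p = 3.84e-05, edgeR). Zfp36l2 went from 523, 519 and 943 CPM to 341, 370.5 and 377 CPM (−0.87 ± 0.22; adjusted p = 0.0173, edgeR). Both were called lower, and Zfp36 itself was not. In Zfp36l2, as in Zfp36, WT replicate 3 stood well above the other WT samples. The change of Zfp36l2 without that sample is not given here.

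Corepressors and heterochromatin factors, taken from general knowledge as partners of KRAB proteins, were examined as a list of 21 genes, with a median log2 fold change of −0.01. Some of them, such as Dnmt1 and Uhrf1, are general factors and not KRAB partners alone. Of these, 5 were called higher (23.8%) and 2 lower (9.52%), against 11.9% and 12.5% of all genes tested. The other 14 were not called. Trim28, the direct KRAB corepressor, was at 263, 246 and 254 CPM in WT and 275, 271 and 269 CPM in KO (0.09 ± 0.06; adjusted p = 0.261, edgeR). Setdb1 averaged 100.5 ± 6.05 CPM in WT samples and 91.0 ± 3.27 CPM in KO samples (SD, n = 3; adjusted p = 0.151, edgeR). Neither core partner was called in either direction. Of the HUSH silencing complex, Tasor went from 88.8, 109 and 106 CPM to 61.2, 66.5 and 67.8 CPM and was called lower (−0.64 ± 0.09; adjusted p = 0.00161, edgeR), a call that was lost at −0.58 without WT replicate 2 and at −0.57 with GC and length offsets. Mphosph8 passed the p cutoffs at −0.46, and Pphln1 was at 0.18. Of the NuRD ATPases, Chd3 was called lower, from 1274, 1148 and 1209 CPM to 729, 690.2 and 686 CPM, and Chd4 was at 0.15.

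The 5 partners called higher were Uhrf1, Dnmt1, Suv39h1, Suv39h2 and Cbx5. Uhrf1 and Dnmt1, which copy DNA methylation after replication, had log2 fold changes of 1.69 ± 0.30 and 0.83 ± 0.18 (adjusted p = 0.00379 and 0.00921, edgeR). Uhrf1 was at 133, 124 and 52.9 CPM in WT and 358, 315 and 327 CPM in KO. Suv39h1 and Suv39h2, which methylate H3K9, had 0.70 ± 0.11 and 1.11 ± 0.20, and the heterochromatin protein Cbx5 had 0.67 ± 0.14, a call that was lost at 0.51 without WT replicate 3. In all 5 genes that sample was the lowest of the WT samples, though for Suv39h2 by a small margin (3.15 against 3.23 CPM), as it was for the cycling markers, for which Mki67 was at 441, 445 and 199 CPM in WT and 1507 to 1568 CPM in KO. The part of cycling cells in these rises was not tested.

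Some members share sequence with other genes. Of the tested members, 18 shared more than 50% of their transcript's 50-base words with another gene, and 5 of these were called lower (27.8%). Another protein-coding gene overlapped 40 members, of which 12 were called lower (30%) and 0 higher. The shares called lower were 22.6% of all tested members and 12.5% of all genes tested, and 11.9% of all genes were called higher. Without the 18, an alternative added after seeing the data, 72 members were called lower and 5 higher, with a median of −0.29. Without the 33 members that share more than 50% of the 10-residue words of their protein with another gene, 65 were called lower and 5 higher, with a median of −0.28. The 2 rows of Zfp968, at 12.3 and 1.96 CPM in WT and 6.93 and 1.03 CPM in KO, share 98.6% of their words with Zfp966, and the row with more reads was called lower.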

How the data were processed

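RNA-Seq of 3 WT and 3 KO Treg samples was analysed. Per the study's methods, the authors filtered reads with SOAPnuke, mapped the cleaned reads on mm10 using HISAT2 (at most 1 alignment reported for each), and ran StringTie. The authors deposited whole-number counts per gene, not normalized. The annotation, the use of strand and the step that gave whole numbers are not given in the sources used here. The smallest row sum was 60.

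Counts were scaled by TMM, filtered by filterByExpr (minimum count 10) and tested with edgeR 4.0.16 in R 4.3.3, KO against WT, two-sided, with Benjamini-Hochberg adjustment over all genes. The cutoffs were those of the study. CPM values use TMM-scaled libraries. DESeq2 1.42.0 was an alternative. The fits were tested on simulated data. Finger motifs (C, 2 to 4 residues, C, 12 residues, H, 3 to 5 residues, H) and KRAB signatures were searched in proteins translated from GENCODE M21, with lengths and GC from the same transcripts. RefSeq proteins, planned for this step, were not used here. Positions are of RefSeq GRCm38.p6, the assembly of mm10, which held all 344 members.

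Named members were the 10 largest rises and 10 largest falls among those called, with at least 2 CPM in 1 genotype and no overlap (4 rises qualified), the 5 with the highest mean CPM, role lists, KRAB partners and runs. Members and lists were chosen with earlier results of these data known.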

Additional observations from a re-analysis of the deposited data

How the results depend on the processing

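The median log2 fold change of the members stayed between −0.33 and −0.27 under every alternative run. The count of members called lower was 24 with glmTreat and between 68 and 112 in the other fits to all samples, and over fewer members of the same fit it was 65 without shared protein words, 72 without shared transcript words and 74 with at least 2 finger motifs. It was 112 with an adjusted p under 0.05 and no fold cutoff, which also gave 10 higher, and 9 members were called higher without WT replicate 3. With 1 sample left out, 59 to 81 were called lower and 4 to 9 higher, members with KRAB gave 34 to 58 lower and those without 21 to 27, 6 to 7 partners were called, and the calls over all genes numbered 2867 to 3667. With glmTreat there were 1686 genes called, 14 KRAB members lower, 9 members without KRAB lower and 3 partners called. Among named genes, glmTreat ended the calls of Zfp174, Zfp260, Zfp318, Zfp493, Zfp932, Cbx5, Dnmt1, Suv39h1 and Tasor. With no fold cutoff there were 5244 genes called and 46 members without KRAB lower. DESeq2 called 80 members lower and 6 higher.

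Equal replicate numbers did not pair the samples (correlations of deviations 0.038, 0.04 and −0.012). With the replicate block 68 members were called lower and 6 higher.

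Signs of log2 fold changes turned only for genes that were not called, in Hdac2 (0.00356), Morc2a (0.00590), Smarcad1 (0.00229) with DESeq2, and in Cbx1 (−0.0609), Ehmt2 (0.0990), Morc2a (0.00850), Zfp644 (−0.0111), Zfp809 (−0.0664) with GC and length offsets, and in Hdac2 (0.00357), Morc2a (0.00598), Smarcad1 (0.00215) with RLE size factors, and in Zfp131 (−0.0230), Zfp518a (−0.0310), Zfp644 (−0.0166) with library totals alone. With 1 sample left out, they turned for 12 named genes, over the ranges Cbx1 (−0.0377 to 0.136), Ehmt2 (−0.0748 to 0.0321), Hdac2 (−0.0579 to 0.0263), Morc2a (−0.0603 to 0.0613), Smarcad1 (−0.121 to 0.0696), Zfp131 (−0.102 to 0.106), Zfp36 (−0.633 to 0.270), Zfp410 (−0.0758 to 0.0194), Zfp518a (−0.0817 to 0.121), Zfp608 (−0.686 to 0.0468), Zfp644 (−0.0328 to 0.0510), Zfp830 (−0.0292 to 0.180). The cause was not tested. With 3 samples per genotype, members under about 2 CPM carried large errors, and small changes were not detectable there.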

Other observations

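The 3 members Zfp184, Zfp366 and Zfp462 fell below the low-count filter and were not tested. Zfp184 had 2, 5 and 20 counts in WT and 14, 11 and 9 in KO, and Zfp366 had 6, 8 and 3 in WT and 10, 26 and 7 in KO. Zfp462 had 2, 0 and 68 counts in WT and 9, 4 and 2 in KO, so most of its reads came from WT replicate 3. Zfp72 had a log2 fold change of −1.97 ± 0.83, the second lowest of the members tested, but was not called (adjusted p = 0.1001, edgeR), and 2.58 CPM in WT replicate 3 stood against 0.326 and 0.548 CPM in the other WT samples. Zfp72 is named here after its values were seen.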
